A study of Mus musculus with 86 samples.

Results

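Retinoic acid production, binding and reception were followed through 7 genes in single cells of the embryonic mouse kidney: Aldh1a2, Crabp1, Crabp2, Rara, Rarb, Rarg and Rxra. The genes were chosen by name, and 7 of 7 were found among the 12360 genes of the authors' table of RPKM values (read counts divided by the length of the gene and by the read total of that cell). The table covers 86 cells from wild-type metanephros on a mixed background strain, taken at 12.5 days post coitum (Theiler stage 20) from pooled males and females, with no treatment or transgene named. Kidneys were dissociated with trypsin, and each cell was captured and lysed in its own chamber of a Fluidigm C1 instrument. Because the kidneys were pooled, the cells form 1 sample, and 1 cell is not a replicate of another. Levels are therefore given as a description, without tests.

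Cells were placed in 3 groups by genes that are not members of the set. Bud cells held Mal2, a membrane protein gene of the ureteric bud epithelium, at an RPKM of at least 100 (7 cells). Six2-detecting cells were not bud cells and held Six2, the transcription factor of nephron progenitors, at an RPKM of at least 1 (46 cells). The remaining 33 cells met neither limit. The lowest Mal2 value among bud cells was 1219 and the highest outside was 3.41. The lowest Six2 value among Six2-detecting cells was 1.50, and the highest among the remaining cells was 0.527. Six2 was also detected in 3 of the 7 bud cells.

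The group names were checked against marker lists. The ureteric bud list includes Mal2 and the nephron progenitor list includes Six2, the genes that set the groups. Each bud cell therefore counted Mal2 by construction, each Six2-detecting cell counted Six2, and no remaining cell could count Six2. Each bud cell detected at least 10 of the 13 listed ureteric bud markers, against at most 4 in a Six2-detecting cell and at most 5 in a remaining cell. Of 10 nephron progenitor markers, a median of 9 was detected in Six2-detecting cells, 5 in bud cells and 4 in remaining cells. Of 15 stroma markers, the medians were 2 in bud cells, 7 in Six2-detecting cells and 11 in remaining cells. The remaining cells were mixed, since 25 of 33 detected the stromal progenitor gene Foxd1 and some of the others held high levels of induced nephron markers. Median genes detected per cell were 6488, 6256 and 6087 in the 3 groups. In 5 cells (1 Six2-detecting and 4 remaining) the number lay more than 3 median absolute deviations below the median of all cells. These cells of few genes held 3458 to 4377, and the next cell held 4633. The read depth of each cell is unknown.

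Retinoic acid is made from vitamin A (retinol) in successive oxidations. Retinol dehydrogenases give retinaldehyde, and retinaldehyde dehydrogenases of the Aldh1a family turn this into retinoic acid. In the cell, Crabp1 and Crabp2 bind retinoic acid. Crabp2 is known for passing it to nuclear receptors, and Crabp1 is often linked to its breakdown and to other signalling in the cytoplasm. The receptors Rara, Rarb and Rarg bind DNA in pairs with an RXR such as Rxra, and Rarb is itself a classical retinoic acid target. In the kidney, stromal Aldh1a2 and receptors in neighbouring cells are known to be needed for Ret expression and branching of the ureteric bud.

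Aldh1a2, the main embryonic retinaldehyde dehydrogenase (gene ID 19378, chromosome 9, 71063596 to 71144050 in mm9), was highest in the remaining cells. Its RPKM there had a lowest value of 0.964, a median of 231 and a highest value of 1303. In Six2-detecting cells the same values were 0, 41.5 and 654, and in bud cells 0.418, 8.59 and 275. The 3 groups overlapped, with the order of medians running from remaining through Six2-detecting to bud cells. Means were 304 (SD 285 over 33 cells), 137 (SD 176 over 46 cells) and 65.4 (SD 103 over 7 cells), so neighbouring means differed by less than the SD of the higher group. Aldh1a2 was detected (RPKM of at least 1) in 32 of 33 remaining cells (97.0%, exact Clopper-Pearson 95% interval 84.2 to 99.9), in 38 of 46 Six2-detecting cells (82.6%, 68.6 to 92.2) and in 6 of 7 bud cells (85.7%, 42.1 to 99.6). Such intervals cover counting error only. In remaining cells its mean was above that of 98.2% of all genes in the table.

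The related enzymes Aldh1a1 and Aldh1a3 were nearly confined to bud cells in this table. Listing a gene took at least 3 cells above an RPKM of 3, and for both genes all such cells were bud cells. Both were thus listed only through the group where they are high, and their confinement to it is given as a description. Aldh1a3 was detected in 7 of 7 bud cells, with a lowest RPKM of 3.25, a median of 31.2 and a highest of 116. Outside the bud it was detected in 1 of 79 cells, at 1.69. Aldh1a1 was detected in 4 of 7 bud cells, with a median of 8.16 and a highest value of 136. It was detected in 0 of 79 other cells. That count allows a share of up to 4.56% by the exact interval, or 3.80% when the bound is taken as 3 divided by the number of cells. Aldh1a1 was listed at 0 in each of the 33 remaining cells. The bud cells thus held Aldh1a1 and Aldh1a3 beside Aldh1a2, with bud means of 31.1, 46.4 and 65.4.

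The bud cells differed among themselves in which Aldh1a gene was high. Cell 20 held Aldh1a2 at 275, cell 57 at 128 and cell 47 at 43.4, while cells 3, 18, 74 and 53 held it at 8.59, 1.92, 1.15 and 0.418. Aldh1a1 was 136 in cell 3, 59.6 in cell 18, 14.1 in cell 47 and 8.16 in cell 53, and it was listed at 0 in cells 20, 57 and 74. Cells 20 and 57, the highest in Aldh1a2, were thus among those listed at 0 for Aldh1a1, while cell 47 held both. Markers of other cell types were present in some bud cells. Cell 20 detected 9 of 15 stroma markers (summed RPKM 277, against 9.00 to 76.2 in the other bud cells). Summed progenitor markers did not follow Aldh1a2: they were 635 in cell 47, 600.3 in cell 53, 418 in cell 18, 205 in cell 57 and 133 in cell 20. Six2 was detected in cells 57 (50.4), 18 (18.6) and 47 (12.1). In cells 3 and 74, which detected 0 of 10 progenitor markers and 2 of 15 stroma markers, Aldh1a2 was 8.59 and 1.15 and Aldh1a3 was 16.5 and 52.6. No doublet caller was run, and the part of other cell types in the bud values of Aldh1a2 was not tested.

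**Figure D1:**
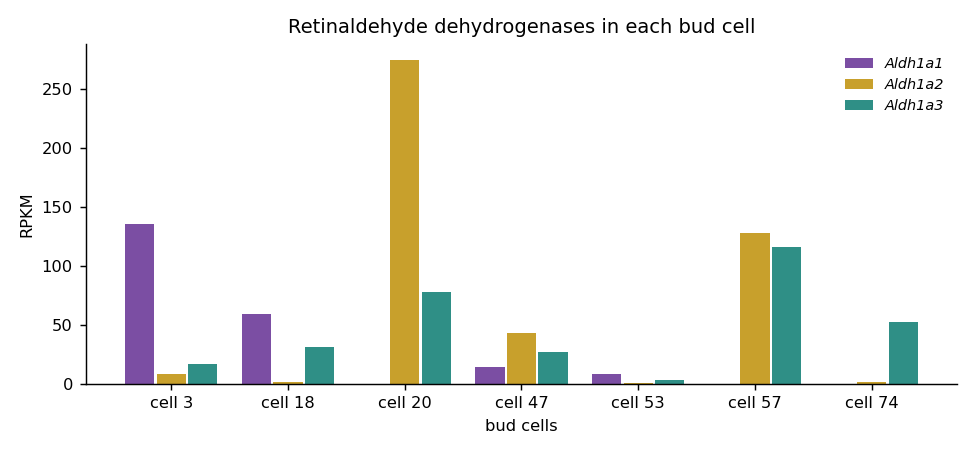
RPKM (vertical axis, linear from 0) of Aldh1a1, Aldh1a2 and Aldh1a3 in each of the 7 bud cells; each bar is 1 cell and has no error bar. Aldh1a2 is tallest in cells 20, 57 and 47, Aldh1a1 in cells 3, 18 and 53, and Aldh1a3 in cell 74. Aldh1a3 is present in each bud cell.

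The promoters of Aldh1a2, detected in each of the 3 groups, and of Aldh1a1, detected in bud cells, are shown for comparison. The 120 bases before the start of Aldh1a2 (RefSeq, GRCm38.p6, chr9:71215669-71215788, plus strand) and of Aldh1a1 (chr19:20601848-20601967, plus strand) both hold the octamer ATGCAAAT, printed in capitals. It lies at -84 to -77 from the Aldh1a2 start and at -56 to -49 from the Aldh1a1 start. Aldh1a1 has 2 RefSeq promoter entries, and the octamer was found only in the entry printed.
Aldh1a2: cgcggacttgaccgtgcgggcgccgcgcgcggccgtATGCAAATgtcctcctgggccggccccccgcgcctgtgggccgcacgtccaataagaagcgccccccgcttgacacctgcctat
Aldh1a1: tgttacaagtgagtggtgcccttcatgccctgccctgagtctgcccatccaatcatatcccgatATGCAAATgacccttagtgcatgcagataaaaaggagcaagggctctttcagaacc
For the background, a stretch longer than the printed 120 bases, running past the start, was searched. On either strand, the octamer occurred in 570 of 32851 such RefSeq promoters (1.74%). It was picked out after the sequences had been read, and a match describes letters and not a bound site.

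Crabp1, a cytoplasmic retinoic acid binding protein (gene ID 12903, chromosome 9, 54612615 to 54620916), showed the widest spread between groups among the 7 genes. Its RPKM ran from 0 through a median of 281 to 2744 in remaining cells. The values were 0, 34.3 and 1124 in Six2-detecting cells, and 0, 0.979 and 123 in bud cells. The groups overlapped both at 0 and well above it, but 6 of 7 bud cells lay at 18.5 or below. Means were 432 (SD 569 over 33 cells), 157 (SD 240 over 46 cells) and 20.5 (SD 45.8 over 7 cells). Crabp1 was detected in 29 of 33 remaining cells (87.9%, 71.8 to 96.6), 34 of 46 Six2-detecting cells (73.9%, 58.9 to 85.7) and 3 of 7 bud cells (42.9%, 9.90 to 81.6). The highest bud value, 123, was in cell 20, the bud cell with 9 stroma markers.

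Crabp2, the partner known for delivering retinoic acid to receptors (gene ID 12904, chromosome 3, 87752615 to 87757294), was detected in more cells than any other member (82 of 86). Its lowest, median and highest RPKM were 0.517, 272 and 892 in remaining cells. They were 0.862, 158 and 571 in Six2-detecting cells and 0.449, 79.7 and 489 in bud cells. The groups overlapped, and the means of 300.2 (SD 204), 189 (SD 131) and 159 (SD 187) lay within 1 SD of each other. Crabp2 was detected in 32 of 33, 45 of 46 and 5 of 7 cells. Its 5 highest cells held 17.0% of its summed RPKM over the 86 cells, against 34.6% for Crabp1 and 24.3% for Aldh1a2.

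In Six2-detecting and remaining cells, the mean RPKM of each of the 4 receptors was below the means of Aldh1a2, Crabp1 and Crabp2. In bud cells the median of Rarb, 12.3, was above those of Aldh1a2 (8.59) and Crabp1 (0.979). Rarb, a receptor gene that retinoic acid itself induces (gene ID 218772, chromosome 14, 17263354 to 17651648), was the most often detected of the 4. It was detected in 20 of 33 remaining cells (60.6%), 28 of 46 Six2-detecting cells (60.9%) and 4 of 7 bud cells (57.1%). Its RPKM reached 144 in remaining cells (median 2.73), 72.4 in Six2-detecting cells (median 1.53) and 32.8 in bud cells (median 12.3). These shares were close, and their intervals overlapped. At a limit of RPKM 10 they were 30.3%, 26.1% and 57.1%. Means were 16.4 (SD 33.0), 8.96 (SD 15.5) and 13.1 (SD 13.6), each with differences below the SD.

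Rarb is shown with its promoter because it is a member known to answer to the pathway. The 120 bases before its start (RefSeq, GRCm38.p6, chr14:16575477-16575596, minus strand, printed 5′ to 3′) hold a direct repeat with 5 bases between its copies, printed in capitals at -53 to -37.
Rarb: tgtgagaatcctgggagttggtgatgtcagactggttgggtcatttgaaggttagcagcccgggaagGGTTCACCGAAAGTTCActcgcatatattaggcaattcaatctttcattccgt
The search took the hexamer AGGTCA and its variant GGGTCA, as well as AGTTCA and the variant GGTTCA. Any of these had to be followed by another (or the same) in the same orientation, on either strand. The search covered a stretch longer than the printed 120 bases, running past the start. The repeat with 5 bases between occurred in 32 of 32851 promoters (0.0974%). RefSeq entries were matched for 6 of the 7 members (11 promoters), and among these it was found in Rarb. Repeats with 2 bases and 1 base between occurred in 0.268% and 0.222% of all promoters, and in none of the members' promoters. The hexamers searched include both copies of the printed Rarb repeat (GGTTCA and AGTTCA), so the match is a description of letters and not a test.

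Rara (gene ID 19401, chromosome 11, 98799010 to 98836256), the broadly expressed receptor, was detected in 11 of 33 remaining cells (33.3%), 12 of 46 Six2-detecting cells (26.1%) and 3 of 7 bud cells (42.9%). Its highest values were 32.0, 21.2 and 28.5, and its medians were 0.130, 0 and 0.149. The mean in bud cells, 5.47 (SD 10.5), was above the means of 2.87 (SD 6.85) in remaining and 2.17 (SD 4.68) in Six2-detecting cells. It rested on cell 74 at 28.5, and the next bud cells held 6.98 and 2.58.

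Rxra (gene ID 20181, chromosome 2, 27532721 to 27618839), the shared dimer partner, was detected in 11 of 33 remaining cells (33.3%), 7 of 46 Six2-detecting cells (15.2%) and 1 of 7 bud cells (14.3%). Its highest values were 50.7, 91.6 and 39.2, with medians of 0.115, 0 and 0. The single bud cell was again cell 74, and the other 6 were listed at 0. The Six2-detecting cell at 91.6 was one of the 5 cells with few genes.

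Rarg (gene ID 19411, chromosome 15, 102065371 to 102087914), a receptor known for skin and skeletal development, was the lowest member. It was detected in 10 of 33 remaining cells (30.3%), 7 of 46 Six2-detecting cells (15.2%) and 1 of 7 bud cells (14.3%), with highest values of 4.42, 9.82 and 1.41. Its mean in remaining cells, 0.852 (SD 1.31), was above that of 11.3% of all genes. For Rara, Rxra and Rarg the intervals of the shares overlapped between the groups, as did those of the other members. The intervals cover counting error within 1 pool and are no test of the groups, so no order of the groups is read from these shares.

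**Figure D2:**
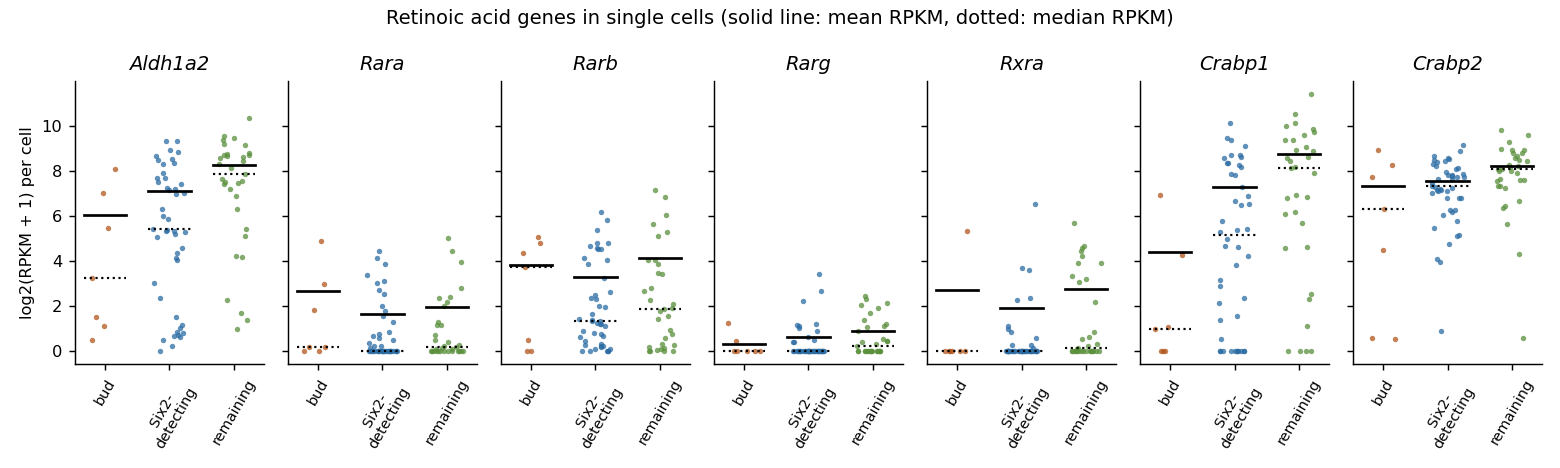
log2(RPKM + 1) of each of the 7 genes in each cell (points), by group (7 bud, 46 Six2-detecting and 33 remaining cells); the solid line is the mean RPKM and the dotted line the median RPKM, both placed on the log2(RPKM + 1) scale. Aldh1a2 and Crabp1 step up from bud to remaining cells, Crabp2 is high in most cells, Rara, Rarg and Rxra lie near 0 in most cells, and Rarb spreads more widely.

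**Figure D3:**
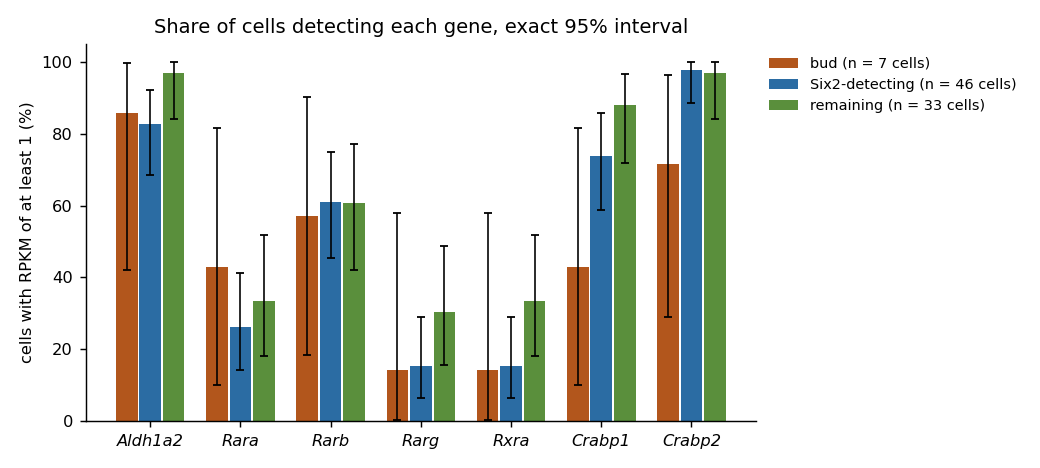
Percent of cells with an RPKM of at least 1 for each gene in bud, Six2-detecting and remaining cells; error bars are exact 95% intervals for counting error. Crabp2 and Aldh1a2 were detected in more than 70% of cells in each group, and the bud bars, on 7 cells, have the widest intervals.

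Between Six2-detecting and remaining cells, the 7 genes were each lower in Six2-detecting cells by their means. The log2 ratio of (mean RPKM + 1) was -1.45 for Crabp1, -1.15 for Aldh1a2, -0.88 for Rxra, -0.80 for Rarb, -0.66 for Crabp2, -0.29 for Rara and -0.24 for Rarg. Past a ratio of 1, a 2-fold difference, 2 of 7 were lower (Crabp1 and Aldh1a2) and 0 were higher. Among all 12360 genes 7.65% were lower past that ratio and 7.4% higher. The median ratio of all genes was 0.02. With the mean of log2(RPKM + 1) per cell in place of the log2 of the mean, Aldh1a2 had -1.90. Without the 5 cells of few genes, Rxra had -1.95.

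Between bud and all other cells, Crabp1 (-3.66) and Aldh1a2 (-1.65) were lower past a ratio of 1, and 0 of 7 were higher. Of all genes, 21.9% were lower and 9.62% higher past that ratio, with a median ratio of -0.21, so a count of 2 lower in 7 was near the background. The Crabp1 difference was 12.7-fold, and 0.396% of genes had a lower ratio. The other members had ratios of -0.57 for Crabp2, -0.43 for Rarg, 0.11 for Rarb, 0.38 for Rxra and 0.90 for Rara. When each group was left without its highest cell for the gene, Crabp1 had -5.77, Aldh1a2 had -2.62, Rxra had -1.98, Crabp2 had -1.12 and Rara had -0.22. By the mean of log2 values Crabp2 had -2.06. The bud means of Rara and Rxra were therefore set by cell 74, and those of Aldh1a2 and Crabp1 were raised by cell 20.

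Set against the remaining cells alone, which also served in the comparison with Six2-detecting cells, bud cells had ratios of -4.33 for Crabp1 and -2.20 for Aldh1a2. These were 2 of 7 members lower past a ratio of 1, where 22% of all genes were lower. Crabp2 had -0.91, Rarg -0.56, Rarb -0.30, Rxra -0.07 and Rara 0.74. Set against Six2-detecting cells, the ratios were -2.87 for Crabp1, -1.05 for Aldh1a2 and 1.03 for Rara, where 20.9% of all genes were lower and 10.3% higher past a ratio of 1.

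The remaining cells were next divided by Foxd1, the transcription factor gene of stromal progenitors. Crabp1 was detected in 25 of 25 cells with Foxd1 (lowest RPKM 3.94, median 392, highest 2744) and in 4 of 8 cells without it (0, 0.582 and 67.9). Means were 566 (SD 595) and 12.2 (SD 23.9). The log2 ratio was 5.43, and 99.98% of genes had a lower one. The 2 sets of cells overlapped between 3.94 and 67.9. The cell at 2744 was one of the 5 with few genes, and without those cells the ratio was 4.97.

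Aldh1a2 followed the same direction, with a lowest, median and highest RPKM of 0.964, 387 and 1303 in cells with Foxd1 and 1.64, 38.0 and 198 in cells without. It was detected in 24 of 25 and 8 of 8 cells, so the difference was one of level (log2 ratio 2.17). Rarb was detected in 18 of 25 and 2 of 8 cells, with means of 21.1 (SD 36.8) and 1.74 (SD 3.52) and a ratio of 3.01. Rxra had a ratio of 1.33, which was 0.55 by the mean of log2 values. In all, 4 of 7 members were higher past a ratio of 1 and 0 lower, where 20.4% of all genes were higher and 12.9% lower. Crabp2 (0.90), Rarg (0.44) and Rara (0.08) did not pass it. Crabp2 did so under the alternatives tried, with 1.76 by the mean of log2 values, 1.06 once the 4 cells of few genes were left out and 1.21 without the highest cell of each set. Rara had 1.31 without the highest cells.

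Other markers moved with this division. The summed RPKM of the 15 stroma markers, which include Foxd1, ran from 132 to 1428 (median 743) in cells with Foxd1 and from 9.56 to 1727 (median 174) in cells without. The sum of 7 induced nephron markers ran from 0.306 to 196 (median 48.4) and from 92.1 to 1757 (median 371). Median genes detected were 6087 and 6114. The part of these cell types in the ratios was not tested.

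The same division of the Six2-detecting cells was added after their values had been seen. Crabp1 had a median of 117 and a highest value of 1124 in the 31 cells with Foxd1, and a median of 2.00 and a highest value of 92.7 in the 15 without. It was detected in 26 of 31 and 8 of 15 cells, with means of 225 (SD 267) and 17.3 (SD 32.0). The log2 ratio was 3.63, and 99.93% of genes had a lower one. Of 4 members past a ratio of 1, Crabp1, Aldh1a2 (ratio 1.26) and Rara (means 2.88 and 0.690) were higher, where 12.8% of all genes were higher. By the mean of log2 values, Aldh1a2 had a ratio of 0.37 and Rara of 0.74, which are below 1. Rxra was lower (-2.33, where 8.3% of genes were lower) through the cell at 91.6, without which it had -0.40. Median genes detected were 6465 with Foxd1 and 5847 without, and median sums of stroma markers were 337 and 176. The part of the number of genes and of stromal RNA was not tested.

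**Figure D4:**
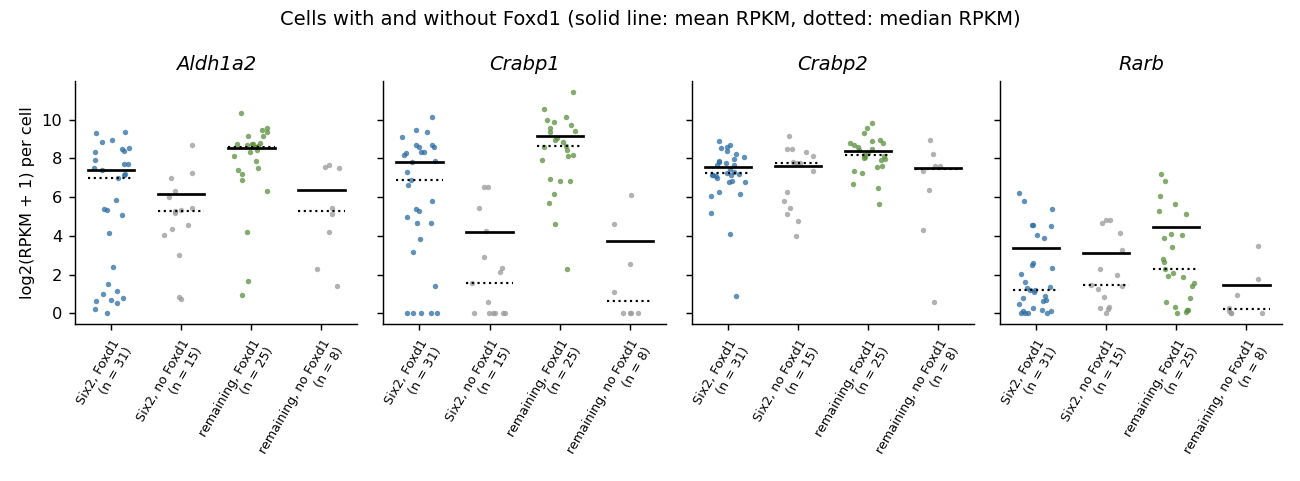
log2(RPKM + 1) of Aldh1a2, Crabp1, Crabp2 and Rarb per cell (points) in Six2-detecting cells with (31) and without (15) Foxd1 and remaining cells with (25) and without (8) Foxd1; solid line mean RPKM, dotted line median RPKM. Crabp1 medians are 117 against 2.00 and 392 against 0.582, while the Crabp2 clouds overlap over most of their range.

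Six2-detecting cells were also divided by Cited1, a marker of uninduced nephron progenitors. Aldh1a2 was detected in 21 of 29 cells with Cited1 (72.4%, 52.8 to 87.3) and in 17 of 17 cells without it (100%, 80.5 to 100). Its lowest, median and highest RPKM were 0, 63.4 and 654 with Cited1, and 1.02, 40.1 and 493 without. The cells with Cited1 thus held both the cells that lacked Aldh1a2 and the highest ones. The log2 ratio of means was 0.19, and the difference of mean log2 values was -0.85, so the direction depended on how cells were averaged. The authors' deposited table gives Aldh1a2 a signed fold of 6.35, headed as six2only vs six2andcited1. Read as six2only over six2andcited1, this is higher without Cited1. That is opposite in direction to the ratio of means here and the same as the difference of mean log2 values. That table covers 450 genes in 35 cells (33 Six2-detecting and 2 bud cells by the limits used here). Its columns do not name the class of each cell, and its RPKM values for Aldh1a2 ran from 0 to 523 with a median of 50.9. Cells 69 and 86 are among its cells and held Aldh1a2 at 637 and 654 in the values used here. The RPKM values thus differ between the 2 deposited tables, and the folds are not directly comparable. Aldh1a2 was the 1 member of the 7 listed in the authors' table of 450 genes.

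For the other members, 1 of 7 was higher and 1 lower past a ratio of 1 in Six2-detecting cells with Cited1, where 10.4% and 8.09% of all genes were. Rara was higher (1.47), detected in 10 of 29 cells with Cited1 and 2 of 17 without. It had 0.77 by the mean of log2 values. Rxra was lower (-2.31), with the cell at 91.6 among those without Cited1. It had -0.56 without the cells of few genes. Crabp1 had -0.55 (0.74 by the mean of log2 values), Rarg -0.68, Rarb -0.15 (0.44) and Crabp2 -0.09.

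How often members met in 1 cell was counted over the 86 cells. Crabp1 and Crabp2 were both detected in 64 cells, Crabp2 without Crabp1 in 18 and Crabp1 without Crabp2 in 2. None of Rara, Rarb and Rarg was detected in 19 cells, 1 of them in 43 cells, and 2 or 3 in 24 cells. A retinoic acid receptor together with Rxra, Rxrb or Rxrg was detected in 39 cells (45.3%, 34.6 to 56.5), and 11 cells detected neither kind. The cells without Rara, Rarb and Rarg were 0 of 7 bud cells, 11 of 46 Six2-detecting cells and 8 of 33 remaining cells. Aldh1a2 and a receptor of the RAR family were detected together in 59 cells, and a RAR without Aldh1a2 in 8 (1 bud and 7 Six2-detecting cells).

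Likeness to other genes was described by the Spearman correlation of RPKM over the 86 cells, searched over 10651 genes detected in at least 10 cells. Cells share a pool and differ in the number of genes detected, so a correlation is a description. Crabp1 was most like Lgals1 (0.75), Anxa2 (0.75), Nfib (0.74) and Col3a1 (0.73). Aldh1a2 was most like 6230427J02Rik (0.61), Maged2 (0.55), Lgals1 (0.54), Mecom (0.54) and Fli1 (0.54). The highest values for the other members were 0.55 for Rarg (Fstl1), 0.47 for Crabp2 (Ntn1), 0.45 for Rxra (Igfbp4), 0.41 for Rarb (2700007P21Rik) and 0.38 for Rara (Frk). Between members, Aldh1a2 and Crabp1 had the highest correlation, 0.53 over 86 cells, 0.47 within Six2-detecting and 0.33 within remaining cells. The correlation of the members with genes detected per cell ran from -0.22 (Crabp2) to 0.16 (Aldh1a2).

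The wider pathway was taken from 5 lists of 60 genes, of which 45 are in the table. In Six2-detecting over remaining cells, 3 of the 45 were higher and 7 lower past a ratio of 1 (median -0.17, against 0.02 over all genes), where 7.4% of all genes were higher and 7.65% lower. The 45 include the 7 members. Among enzymes, Rdh14, of the retinol dehydrogenase family, was higher (2.40, means 9.23 and 0.934) and Adh1, an alcohol dehydrogenase that acts on retinol, was lower (-1.42, means 16.5 and 45.9). Rdh10, the main embryonic retinol dehydrogenase, had 0.34. Among receptors, Rxrg was lower (-2.16), detected in 4 of 46 and 6 of 33 cells. Among 12 coregulators, the corepressor complex gene Tbl1xr1 (1.01) was higher and the coactivator Ncoa2 (-1.04) lower. Among responsive genes, Rarres2 (-2.37) and Ecm1 (-1.25) were lower and Hoxb5 (1.45) was higher. By the mean of log2 values, Adh1 had -0.59, Ncoa2 -0.58 and Rxrg -0.75, which are below 1 in size. Rdh14 (1.09), Tbl1xr1 (1.06), Rarres2 (-1.60), Ecm1 (-1.52) and Hoxb5 (1.53) stayed past 1. Adh1 was detected in 18 of 46 Six2-detecting and 11 of 33 remaining cells.

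In bud over all other cells, 4 of the 45 were higher and 15 lower past a ratio of 1 (median -0.33, against -0.21 over all genes), where 9.62% of all genes were higher and 21.9% lower. Aldh1a1 and Aldh1a3, described above, and Ret, the bud receptor gene that depends on retinoic acid signalling (6 of 7 bud cells and 0 of 79 others), were higher. Aldh1a1, Aldh1a3 and Ret were above an RPKM of 3 in bud cells only, so they entered the table through that group. The count of 4 higher includes them and is not evidence about the pathway. Stra6, the membrane receptor for retinol binding protein, was higher as well (1.44, detected in 6 of 7 bud cells with a mean of 24.4, and in 36 of 79 others with a mean of 8.32). Adh1, Ecm1 and Rarres2 were listed at 0 in each bud cell. Of 18 responsive genes 10 were lower (21.9% of all genes were), with a median of -1.16.

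In remaining cells with over without Foxd1, 16 of the 45 were higher and 4 lower (median 0.34, against 0.09 over all genes), where 20.4% of all genes were higher and 12.9% lower. Dhrs3, which turns retinaldehyde back to retinol and is itself induced by retinoic acid, was higher (1.91, means 395 and 104). Fabp5, another retinoic acid binding protein, was lower (-1.44). Of 18 responsive genes 9 were higher and 3 lower, against the same shares of all genes, among them Rarres2 (3.33) and Hoxa5 (2.43) higher and Hoxb5 (-1.39) lower. Genes of the lists that are not in the table, such as the Cyp26 enzymes that break down retinoic acid, were not analysed here.

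**Figure D5:**
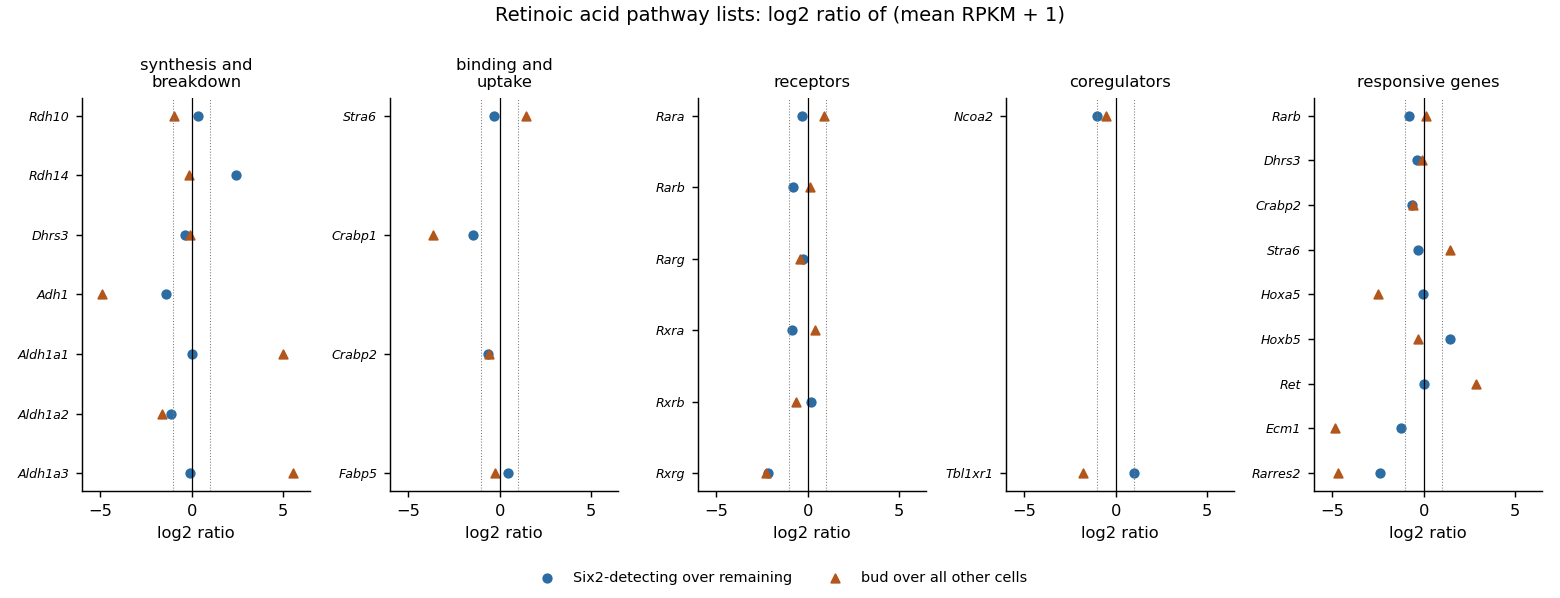
Log2 ratio of (mean RPKM + 1) for genes of the pathway lists in Six2-detecting over remaining cells (circles) and bud over all other cells (triangles), in 5 panels by role; dotted lines mark a ratio of 1 either way, a gene may stand in more than 1 panel, and the genes named in the text are drawn. Aldh1a1 and Aldh1a3 lie far to the right for bud cells, and Crabp1 lies to the left in both comparisons.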

How the data were processed

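Single cells were captured on a Fluidigm C1, and libraries were sequenced on a HiSeq2500, per the labels' protocols. RPKM values were made by the authors and deposited on the linear scale; per the file headers, listing a gene took at least 3 cells above an RPKM of 3, and a deposited column gives the count of such cells. The submitters' processing notes name TopHat 1.4.1, DESeq and mm9 without saying how each was used. Coordinates of genes are those of the deposited table, in mm9. The second deposited table gives the authors' signed fold for 450 genes.

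From these values, means, SD, medians and shares of cells (detection at an RPKM of at least 1, exact Clopper-Pearson 95% intervals) were computed. A ratio is log2((mean RPKM + 1)/(mean RPKM + 1)), with a pseudocount of 1, over all 12360 genes; it understates the change of low genes. Cells are from 1 pool, so no test was made. The members and the gene lists were chosen with earlier results of these data known. Genes named from the lists were the 2 highest and 2 lowest ratios per list and comparison among genes whose mean reached an RPKM of 1 in one of the groups. The division of Six2-detecting cells by Foxd1, and the octamer, were chosen after values or sequences had been seen. Cells of few genes lay more than 3 median absolute deviations below the median number of genes; they were kept. Python 3.11.15, numpy 2.4.6, pandas 2.3.3, scipy 1.17.1 and matplotlib 3.10.9 were used, and the calculation was tested on simulated data. There each gene was shuffled over cells. Of the genes left unchanged, 11.6% still passed a ratio of 1 either way in Six2-detecting over remaining cells. In bud over all other cells it was 30.1%. Of genes raised 2-fold, 36% and 40% passed it. Alternatives were other averaging, pseudocounts, scaling, limits, and leaving out cells. Results for a few listed genes are not reported here.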

Additional observations from a re-analysis of the deposited data

Results flagged for a closer look

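Each member was looked at for a bud cell that stood apart from the other 6, by its gap to the next value as a share of the range; chance marks about 1 in 20 such groups of normally spread values. These values are often at or near 0 and the cells are of 1 pool, so that rate does not carry over, and the cells are named as a description. Of the 7 members, 4 had such a cell. Rara was 28.5 in cell 74, and the next value was 6.98. Rxra was 39.2 in the same cell, and the other bud cells were listed at 0. Crabp1 was 123 in cell 20, and the next value was 18.5. Rarg was 1.41 in cell 3, and the next value was 0.377.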

How the results depend on the processing

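In Six2-detecting over remaining cells, 0 of the 7 members changed sign under any alternative, and between 2 and 3 were lower past a ratio of 1. Elsewhere, up to 3 members changed sign under one alternative in bud over all other cells and in the Cited1 and Foxd1 divisions of Six2-detecting cells, up to 1 in bud over remaining cells, and 0 in the Foxd1 division of remaining cells, where 4 to 6 were higher. In bud over all other cells, 1 member was higher with a pseudocount of 0.1 (0 otherwise), and 4 were lower, in place of 2, when each group was left without its highest cell; against remaining cells this was also 4. In both, 3 were lower with the mean of log2 values or a pseudocount of 0.1. With the mean of log2 values, 0 members were higher and 0 lower in Six2-detecting cells with Cited1, and 1 was higher and 0 lower in those with Foxd1. The lower count was 0 without the cells of few genes in both, and 0 without the highest cell for Foxd1. Of the ratios of single members, 186 stayed within a fixed margin of the main value and 35 moved beyond it. That margin was the same for each gene and does not measure the spread of cells. Of the shares of cells, 23 stayed within the exact interval of the main share and 19 moved out of it. The share of all genes past a ratio of 1 in Six2-detecting over remaining cells was 15.1%. It was 5.94% with mean log2 values, and 1.26% with a pseudocount of 10. In bud over all other cells it was 31.5%, 18.6% and 4.89%. The cause of these changes was not tested. No paired analysis was possible because the cells are from 1 pool and no result comes from a test. Read depth is unknown, and 7 bud cells limit the shares there.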
